A study of Mus musculus with 6 samples.

Results

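The Kruppel-like factors (KLFs) other than *Klf1* were described in LSK cells, the lineage-negative, Sca1+, c-Kit+ fraction of mouse bone marrow that holds the hematopoietic stem cells and the multipotent progenitors. The members were chosen by name and comprised *Klf2*, *Klf3*, *Klf4*, *Klf6*, *Klf7*, *Klf9*, *Klf10*, *Klf12*, *Klf13* and *Klf16*, 10 of the 54532 genes in the deposited table. RNA-seq was compared between 3 libraries from *Myh9fl/fl;Mx1-cre* mice (cKO), in which cre removes floxed *Myh9*, and 3 from littermate controls with no cre (CTRL). *Myh9* encodes the heavy chain of non-muscle myosin IIA. All mice were on the C57BL/6 strain and genotyped at 4 to 5 weeks of age, and both groups received 5 mg/kg poly I:C, an inducer of interferon that switches on the *Mx1* promoter, so the controls carry the effect of poly I:C too. The labels give 2 doses, given on alternate days, and 100000 LSK cells sorted at day 4 after the first dose, whereas the methods of the study give 1 dose more. *Mx1-cre* is also active outside the blood system, the study describes the cells of a group as independent sets, and the number of mice behind each library is not given in the sources used here, so the p-values measure the spread between these libraries only.

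KLFs are transcription factors that bind GC-rich boxes and CACCC boxes in DNA through zinc fingers at the end of the protein. What they do there differs with the region before the fingers: *Klf2*, *Klf4*, *Klf6* and *Klf7* form a subfamily that mostly activates transcription, *Klf3* and *Klf12* recruit the corepressor CtBP, and *Klf9*, *Klf10*, *Klf13* and *Klf16* recruit the corepressor SIN3A. In blood, *Klf2* is known for keeping lymphocytes quiescent and *Klf4* for monocyte differentiation, while *Klf4*, *Klf6* and *Klf10* are also known as genes that cells switch on quickly after a stimulus.

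*Klf6* and *Klf4* fell most in *Myh9*-deficient LSK cells, and *Klf13*, *Klf9* and *Klf10* fell less, whereas *Klf16* rose slightly and *Klf2* and *Klf3* did not pass the test. Of the 10 members, 8 averaged at least 1 FPKM (fragments per kilobase of exon, scaled to library size) over the 6 libraries and entered the test, which was limma on log2(FPKM + 1) with Benjamini-Hochberg adjustment over all genes tested and a threshold of 0.05. Of these 8, 5 fell, against 20.6% of the 11552 genes tested, and 1 rose, against 19.9%. The median log2 fold change of the 8 was -0.31, beside -0.01 for all genes tested. The same 5 members had all cKO libraries below every CTRL library, which held for 28.5% of all genes tested, and *Klf16* had all cKO libraries above, which held for 25.5%. Over the whole table, 49.1% of the genes that passed were higher in cKO, and 59.5% were after removal of the trends with GC content and length, under which 5 members still fell and 1 rose.

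**Figure D1:**
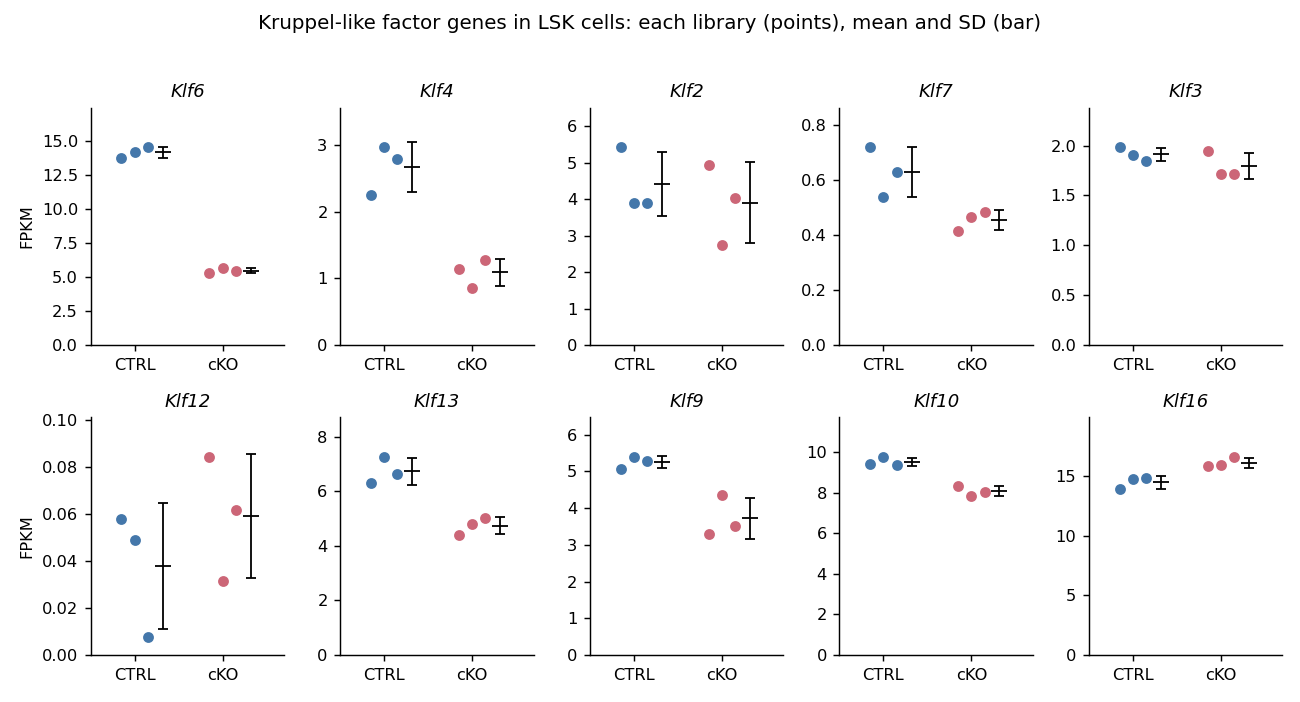
FPKM (vertical axes, each from 0) of the 10 KLF genes in 3 CTRL libraries (blue points) and 3 cKO libraries (red points), with the mean and SD of each group as a black bar. *Klf6* lay between 13.7 and 14.5 FPKM in CTRL and between 5.31 and 5.67 in cKO, while the groups of *Klf2*, *Klf3* and *Klf12* overlapped.

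The libraries held 17571544 to 19894562 reads on genes, recovered from the FPKM values, and log2(FPKM + 1) correlated at 0.991 to 0.993 within a group and at 0.974 to 0.977 between the groups (Pearson r across genes, which are not independent replicates). *Myh9* itself was at 22.5 ± 0.495 FPKM (mean ± SD, n = 3 here and throughout) in CTRL and 18.7 ± 1.18 in cKO, a log2 fold change of -0.26 (limma adjusted p = 0.00642). The deletion targets 1 exon, and any reads from the rest of the gene would still count, so this value is a limited check of the labels. Reads per exon and the completeness of the deletion were not examined here. *Kit*, *Ly6a* (Sca1) and *Cd34*, which mark LSK cells, were present at means of 21.5 to 95.4 FPKM in both groups. Of 9 tested markers of LSK cells and their stem and progenitor cells, 3 rose, 1 fell and 5 did not pass. *Procr*, *Flt3* and *Hlf* rose, with log2 fold changes of 0.67, 0.58 and 0.38, and *Kit* fell, at -0.14 (limma adjusted p of at most 0.0125). Markers of other cells moved with the groups: 10 of 12 tested neutrophil and monocyte markers fell, their summed level going from 9054–9118 to 4695–4766 FPKM, and 9 of 9 tested erythroid markers rose, from 422–423 to 763–781 FPKM. Likewise, 5 of 5 tested megakaryocyte markers rose, from 72.3–76.7 to 148–152 FPKM, and 6 of 7 tested mast cell and basophil markers, from 126–137 to 190–199 FPKM. In bulk samples such as these, fewer cells of a type and less RNA per cell cannot be told apart.

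The stretches of DNA ahead of the genes that moved, and of *Klf2* for contrast, are shown because KLF genes are themselves known to be controlled through GC-rich promoters. The promoter set used, from RefSeq (build GRCm38.p6), held 8 of the 10 members and no entry for *Klf10* and *Klf16*. The windows of *Klf12* (chr14:100149797-100150046, minus strand) and *Klf7* (chr1:64121390-64121639, minus) lie wholly inside the deposited genes, thus at internal starts. Both count in the shares below. Each line gives the 250 bases before the transcription start, 5′ to 3′ on the strand of the gene: *Klf6* at chr13:5861239-5861488 (plus strand), *Klf4* at chr4:55532476-55532725 (minus), *Klf13* at chr7:63938916-63939165 (minus), *Klf9* at chr19:23140976-23141225 (plus) and *Klf2* at chr8:72318812-72319061 (plus). Capitals mark, on either strand, CCAAT boxes (CCAAT), GC boxes (GGGCGG), the short cAMP response element (TGACG) and, in *Klf2*, the MEF2 element.
Klf6: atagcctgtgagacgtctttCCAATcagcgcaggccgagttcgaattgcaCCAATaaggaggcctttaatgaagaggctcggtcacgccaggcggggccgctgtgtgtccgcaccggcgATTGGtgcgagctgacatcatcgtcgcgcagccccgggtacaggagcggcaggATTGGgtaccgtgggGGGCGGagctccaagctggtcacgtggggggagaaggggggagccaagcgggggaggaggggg
Klf4: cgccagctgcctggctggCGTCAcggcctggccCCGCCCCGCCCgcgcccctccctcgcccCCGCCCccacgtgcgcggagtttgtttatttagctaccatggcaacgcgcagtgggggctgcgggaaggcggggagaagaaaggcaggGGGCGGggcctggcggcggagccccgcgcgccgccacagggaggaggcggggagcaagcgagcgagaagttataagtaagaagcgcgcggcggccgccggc
Klf13: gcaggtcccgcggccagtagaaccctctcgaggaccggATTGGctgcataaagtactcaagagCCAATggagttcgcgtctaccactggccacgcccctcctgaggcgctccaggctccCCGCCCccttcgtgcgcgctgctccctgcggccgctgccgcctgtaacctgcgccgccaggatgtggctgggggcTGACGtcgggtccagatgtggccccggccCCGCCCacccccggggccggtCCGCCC
Klf9: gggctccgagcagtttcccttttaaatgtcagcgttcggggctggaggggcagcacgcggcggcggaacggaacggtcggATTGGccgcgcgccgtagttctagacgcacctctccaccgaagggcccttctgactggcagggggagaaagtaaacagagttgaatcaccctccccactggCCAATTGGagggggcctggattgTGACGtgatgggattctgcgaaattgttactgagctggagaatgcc
Klf2: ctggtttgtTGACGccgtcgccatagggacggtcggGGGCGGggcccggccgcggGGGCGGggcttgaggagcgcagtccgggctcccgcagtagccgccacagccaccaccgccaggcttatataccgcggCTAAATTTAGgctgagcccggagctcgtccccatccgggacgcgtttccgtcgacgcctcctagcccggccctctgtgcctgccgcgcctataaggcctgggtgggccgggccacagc

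The promoter of *Klf6* held 4 CCAAT boxes, which start 230, 200, 131 and 78 bases before the transcription start, and 0.84% of the 32851 mouse promoters of this length held as many. A CCAAT box was also found in *Klf13* and *Klf9*, thus in 3 of the 8 members with a promoter, beside 33.8% of all promoters. In *Klf9* the last 2 of 3 CCAAT boxes overlap, since CCAAT and its complement share bases there. GC boxes were found in 6 of the 8 members, beside 32.7% of all promoters, with 6 in *Klf3*, 4 in *Klf4*, 2 of which overlap, 3 in *Klf13*, 2 in *Klf2* and 1 each in *Klf6* and *Klf7*. As many as in *Klf3* were held by 0.886% of all promoters. The CACCC box (CACCC) was found in 6 of 8, beside 52% of all promoters, and 1 each in *Klf13* and *Klf3* shares a base with a GC box.

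The short cAMP response element occurred in 5 of 8 members, *Klf4*, *Klf13*, *Klf9*, *Klf2* and *Klf12*, beside 17.8% of all promoters, and the full element (TGACGTCA), which contains it, in 0 of 8, beside 1.55%. An E-box (CACGTG) was found in *Klf6* and *Klf4*, beside 6.02% of all promoters, and an AP-1 site (TGANTCA), which shares bases with a CACCC box, in *Klf9*, beside 6.75%. The MEF2 element, the site through which the MEK5-ERK5 kinase cascade is known to act on *Klf2*, was found in *Klf2* at bases 118 to 109 before the start, beside 2.92% of all promoters. The CArG box, bound by serum response factor, was in none of the 8, beside 1.47%. The windows of 7 of the 8 members were richer in GC than the median promoter, from 59.2% in *Klf7* to 78.4% in *Klf3* against 52.4%. That of *Klf12*, at 48%, was not, and it lies inside the gene, as does that of *Klf7*. These matches are descriptions of the letters in these windows.

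The members share their DNA-binding end. Translated from the mouse annotation, each protein ended in 3 zinc fingers that span 81 residues, after which 1 to 3 residues followed in *Klf2*, *Klf3*, *Klf4*, *Klf6*, *Klf7* and *Klf12* and 19 to 43 in *Klf9*, *Klf10*, *Klf13* and *Klf16*. Across the 45 pairs of members, the fingers were identical at 60.5% to 95.1% of aligned residues (median 69.1%) and the regions before them at 20.8% to 44.9% (median 29.9%). The closest fingers were those of *Klf6* and *Klf7* at 95.1%, then *Klf2* and *Klf4* at 91.4% and *Klf3* and *Klf12* at 91.4%. The proteins ranged from 244 residues in *Klf9* to 483 in *Klf4*, with 318 in *Klf6*. The longest run that the transcripts of any 2 members share was 26 bases, between *Klf6* and *Klf7*.

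**Figure D2:**
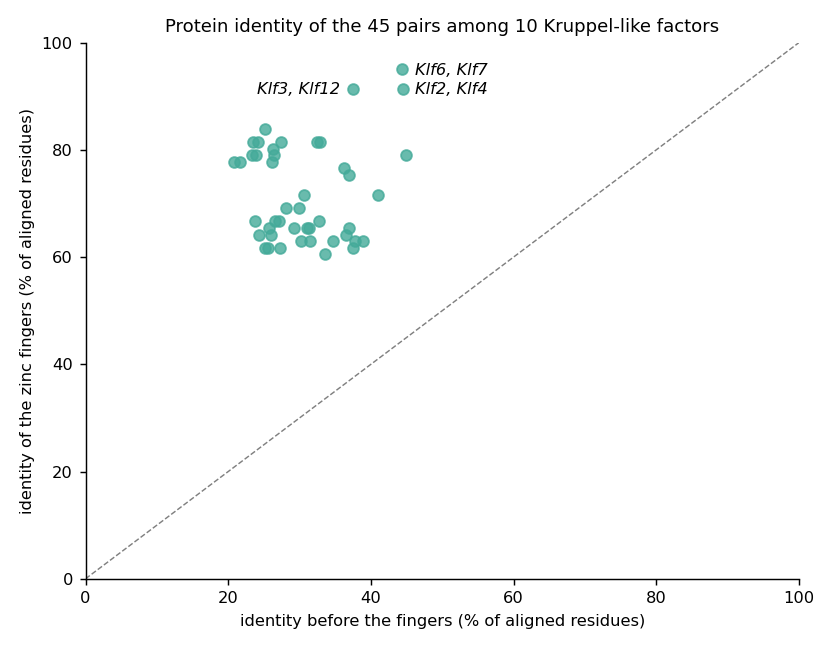
Identity of the zinc fingers (vertical axis, % of aligned residues) against identity of the region before them (horizontal axis, %) for the 45 pairs of the 10 KLF proteins, with the dashed line marking equal identity. All pairs lie above the line, and the 3 named pairs have fingers that are identical at 91.4% or more.

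In the activator subfamily, *Klf6* (chr13:5861482-5870394 in mm10), known from macrophages, vessels and wound repair, was at 13.7, 14.2 and 14.5 FPKM in CTRL libraries 1 to 3 and at 5.31, 5.67 and 5.46 in cKO libraries 1 to 3. All cKO libraries were far below every CTRL library, and the spread within each group was small. The mean went from 14.2 ± 0.405 to 5.48 ± 0.18 FPKM, so that it fell by 61.3%, and the log2 fold change was -1.23 (SE 0.041, limma adjusted p = 6.6e-06). It was the only member lower by more than 2-fold on the log2(FPKM + 1) scale with an unadjusted p under 0.05, which held for 0.701% of all genes tested. Only 0.364% of the genes tested had a lower log2 fold change. The gene rested on 3524 reads in the CTRL libraries together and 1337 in the cKO libraries, and its log2 fold change lay between -1.37 and -1.17 under 19 alternative settings, with the call kept in each one that has a test.

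*Klf4* (chr4:55527143-55532466), a reprogramming factor that also drives monocyte differentiation, was at 2.24, 2.96 and 2.79 FPKM in CTRL and at 1.14, 0.863 and 1.27 in cKO. The cKO libraries were again all below the CTRL libraries, at a level where the pseudocount of 1 shrinks the fold change. The log2 fold change on that scale was -0.81 (SE 0.11, limma adjusted p = 0.0018), and the log2 ratio of the means, 2.66 ± 0.374 and 1.09 ± 0.207 FPKM, was -1.29. The mean fell by 59.1%. The neutrophil and monocyte markers, a lineage in which *Klf4* is known to be active, fell together with it (10 of 12 lower, 1 of 12 higher, median log2 fold change -0.72, none of the 14 listed at 0), and their part in the change of *Klf4* was not tested.

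*Klf2* (chr8:72319033-72321656), which in endothelium and lymphocytes maintains a quiescent state, was at 5.42, 3.90 and 3.89 FPKM in CTRL and at 4.94, 2.73 and 4.04 in cKO. Library 1 was the highest in each group, cKO library 2 was the lowest of all, and the groups overlapped. The log2 fold change was -0.15, with a 95% confidence interval of -0.60 to 0.29 (limma adjusted p = 0.551), and it was 0.031 without cKO library 2. The SD of *Klf2* within groups was 0.289 on the log2 scale, and 4.96% of the 2279 genes with a mean of 3 to 6 FPKM had a larger one. Its coefficient of variation was 19.9% in CTRL and 28.5% in cKO, where 8.32% would come from the counting of its reads alone. A change of *Klf2* of the size seen in *Klf13* would lie inside that interval.

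*Klf7* (chr1:64029447-64122282), known mainly from neurons, was below the minimum for the test, at 0.717, 0.537 and 0.628 FPKM in CTRL and at 0.414, 0.465 and 0.482 in cKO. These values rest on 77 to 116 reads per CTRL library and 63 to 73 per cKO library. All cKO libraries were below every CTRL library, and the two-sided exact permutation test gave p = 0.1, the smallest that 3 against 3 libraries allow. With no minimum, limma gave a log2 fold change of -0.16 (adjusted p = 0.159). Reads of *Klf7* cannot be separated from those of 2 genes on the other strand without strand information, but 1 of these, *Gm26649*, which shares 3196 exon bases, was listed at 0 in every library, and the other, *Gm13748*, shares 4.

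Taken as a sum, the 4 members of the activator subfamily went from 21.9 ± 0.249 to 10.9 ± 1.08 FPKM, with every cKO library below every CTRL library.

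The members that recruit CtBP were low, and in both the groups overlapped. *Klf3* (chr5:64803388-64832901), a repressor known from erythroid cells and B cells and itself a target of *Klf1*, was at 1.98, 1.90 and 1.85 FPKM in CTRL and at 1.95, 1.72 and 1.72 in cKO. The cKO library 1 lay among the CTRL libraries. The log2 fold change was -0.060, with a 95% confidence interval of -0.22 to 0.099 (limma adjusted p = 0.509). *Klf3* shares 404 exon bases with *Gm20033* on the other strand, whose mean went from 0.447 to 0.724 FPKM. *Klf12* (chr14:99870632-100284679), a repressor of the AP-2 alpha gene, had 8, 6 and 1 reads in CTRL and 11, 4 and 8 in cKO, so that a difference was not detectable at this depth (exact permutation test, two-sided p = 0.4). The sum of both went from 1.95 ± 0.0913 to 1.85 ± 0.156 FPKM, and the libraries of the groups overlapped.

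Among the members that recruit SIN3A, *Klf13* (chr7:63886351-63938915), known for activating *Ccl5* in T cells and for a role in erythroid maturation, was at 6.30, 7.26 and 6.64 FPKM in CTRL and at 4.40, 4.79 and 5.01 in cKO. All cKO libraries were below every CTRL library. The mean fell by 29.7%, from 6.73 ± 0.486 to 4.73 ± 0.311 FPKM, and the log2 fold change was -0.43 (SE 0.066, limma adjusted p = 0.0028). *Ccl5*, a chemokine, was at 10.1 ± 1.62 FPKM in CTRL and at 35.5 ± 1.17 in cKO, a log2 fold change of 1.73 (limma adjusted p = 5.5e-05), the other direction from *Klf13*. Among T and NK cell markers, the mean of *Cd3d* went from 0.141 to 1.45 FPKM and that of *Gzma* from 0.425 to 1.56, while *Nkg7* went from 353 to 280. Their part in the change of *Ccl5* was not tested.

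*Klf9* (chr19:23141226-23166911), known as a gene induced by glucocorticoids and thyroid hormone, was at 5.07, 5.39 and 5.29 FPKM in CTRL and at 3.29, 4.35 and 3.52 in cKO. The cKO library 2 was the highest of its group and still below the lowest CTRL library. The log2 fold change was -0.41 (SE 0.087, limma adjusted p = 0.0103), from means of 5.25 ± 0.163 and 3.72 ± 0.559 FPKM. *Klf10* (chr15:38291463-38300706), first known as an early gene of TGF-beta signaling, was at 9.40, 9.76 and 9.39 FPKM in CTRL and at 8.33, 7.84 and 8.04 in cKO. The groups did not overlap, and the mean fell by 15.2%, with a log2 fold change of -0.21 (SE 0.040, limma adjusted p = 0.0063).

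*Klf16* (chr10:80567124-80577321), a repressor first known from dopamine receptor genes, was at 13.9, 14.7 and 14.8 FPKM in CTRL and at 15.9, 15.9 and 16.6 in cKO. It was the only tested member that was higher in every cKO library than in every CTRL library. The mean went from 14.5 ± 0.515 to 16.1 ± 0.413 FPKM and was thus 11.4% higher, with a log2 fold change of 0.15 (SE 0.039, limma adjusted p = 0.0244). This call depended on single libraries: the adjusted p was 0.0746 without CTRL library 1 and 0.0721 without cKO library 3. The 4 members of the SIN3A group summed to 36.0 ± 1.25 FPKM in CTRL and 32.6 ± 0.686 in cKO.

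**Figure D3:**
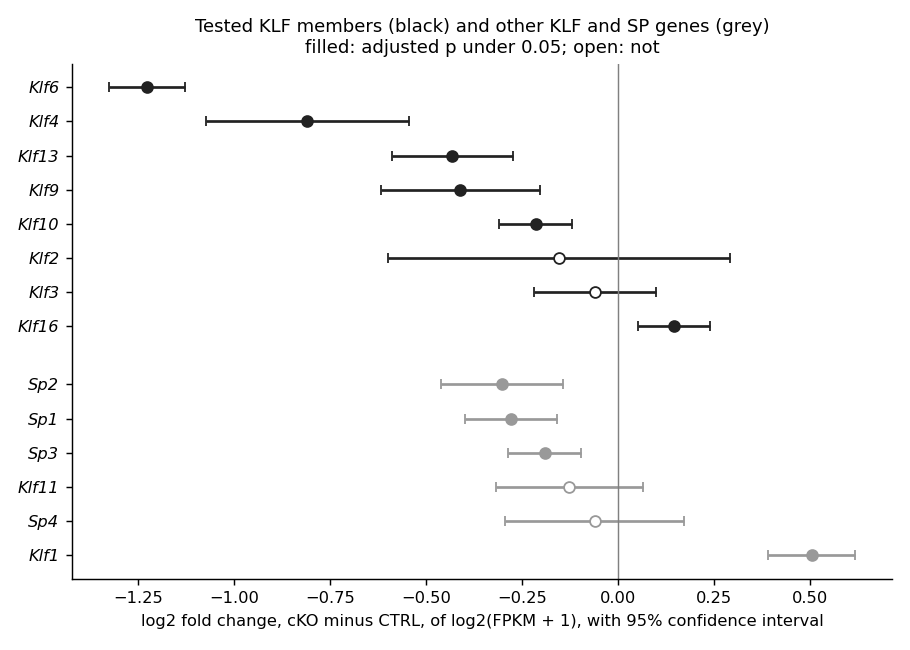
Log2 fold change of log2(FPKM + 1), cKO minus CTRL (horizontal axis), with its 95% confidence interval, for the 8 tested members (black) and the 6 tested other KLF and SP genes (grey), 3 libraries in each group. Filled points passed an adjusted p of 0.05. *Klf6* at -1.23 and *Klf4* at -0.81 are the lowest, and *Klf1* at 0.50 lies farthest to the right.

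Ranked by FPKM, which is per length, *Klf16* and *Klf6* were the highest members in CTRL and their ranges overlapped, followed by *Klf10*, *Klf13*, then *Klf9* and *Klf2* with overlapping ranges, then *Klf4*, *Klf3*, *Klf7* and *Klf12*. The other neighbours in that order did not overlap. In cKO, *Klf16* was again first, but *Klf10* was above *Klf6*, the ranges of *Klf13*, *Klf2* and *Klf9* overlapped as neighbours, and *Klf3* was above *Klf4*. The level of *Klf6* relative to *Klf16* in the same library went from 0.979 ± 0.0123 to 0.340 ± 0.0144. The 10 members summed to 59.8 ± 0.955 FPKM in CTRL and to 45.4 ± 0.944 in cKO, and without *Klf6* to 45.6 ± 0.766 and 39.9 ± 1.09. *Klf6* made up 23.7% of the summed level in CTRL and 12.1% in cKO, and *Klf16* 24.2% and 35.5%.

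**Figure D4:**
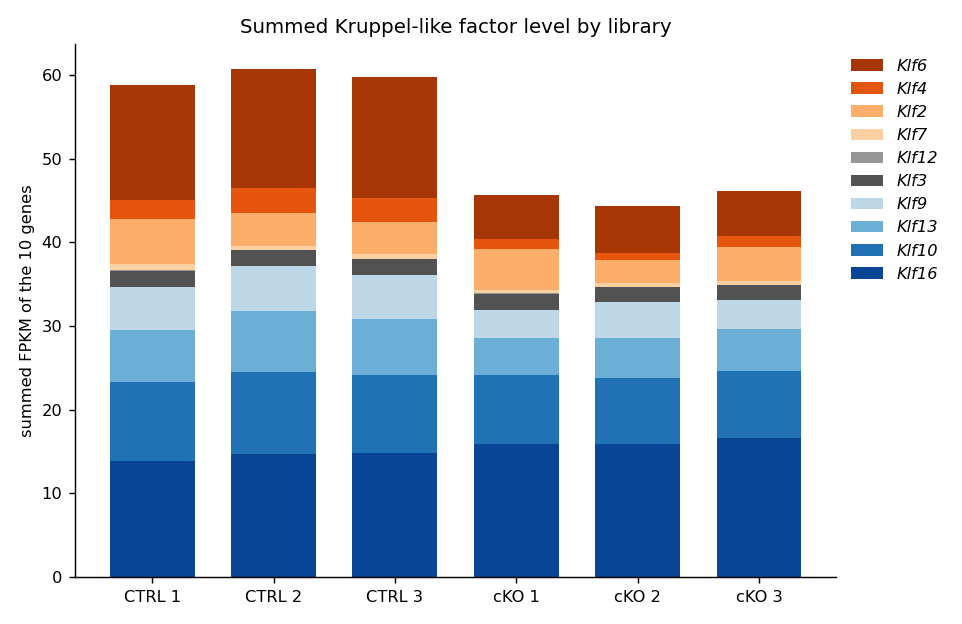
FPKM of the 10 KLF genes stacked for each of the 6 libraries (vertical axis, summed FPKM from 0). The sum lay between 58.8 and 60.7 in CTRL and between 44.4 and 46.2 in cKO, and *Klf6*, at the top of each bar, is the segment that shrank most.

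The rest of the family, the other KLF genes and the related SP genes, comprised 16 genes, of which 6 passed the minimum, 4 were measured below it (*Klf5*, *Klf8*, *Klf15*, *Sp7*) and 6 were at 0 in every library (*Klf14*, *Klf17*, *Sp5*, *Sp6*, *Sp8*, *Sp9*). *Klf1*, the activator of globin and other erythroid genes, rose, with 44.4 ± 1.54 FPKM in CTRL and 63.5 ± 3.51 in cKO (log2 fold change 0.50, limma adjusted p = 3.8e-04). The erythroid markers given above rose with it, and their part in that change was not tested. *Sp1*, *Sp2* and *Sp3*, broadly expressed factors that bind GC boxes, fell, with log2 fold changes of -0.28, -0.30 and -0.19 (limma adjusted p = 0.0054, 0.0122 and 0.0094). *Klf11* (-0.13, adjusted p = 0.25) and *Sp4* (-0.06, adjusted p = 0.659) did not pass. *Klf1* and *Sp3* were higher than any member in every library, and the share of *Klf1* in the summed FPKM of *Klf1* and the members went from 42.6% ± 0.928 to 58.3% ± 0.959.

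Genes that act on KLF genes were examined through lists chosen with earlier results of these data known. Of the kinase cascade and transcription factors that are known to induce *Klf2* and *Klf4* (MEK5, ERK5, the MEF2 factors and the class IIa deacetylases that restrain MEF2), 8 of 12 genes were tested, 5 fell and 0 rose, with a median log2 fold change of -0.21. Of all genes tested, 20.6% fell and 19.9% rose. *Mef2d*, a MEF2 factor, had a log2 fold change of -0.51 (limma adjusted p = 2.2e-04), *Hdac5*, a deacetylase that represses MEF2, of -0.45 (adjusted p = 0.0019), *Map3k3* of -0.27 (adjusted p = 0.0052) and *Map2k5*, which encodes MEK5, of -0.21 (adjusted p = 0.0103). *Hdac7*, another of these deacetylases, fell less (-0.17, limma adjusted p = 0.0071). *Mapk7*, which encodes ERK5, did not pass (-0.21, limma adjusted p = 0.0695), nor did *Mef2a* and *Mef2c*. Activators and repressors of the pathway are thus both among the genes that fell.

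Of 25 immediate early genes, the set that cells switch on within minutes of a stimulus or of handling, 20 were tested, 18 fell and 0 rose, with a median log2 fold change of -0.80. *Atf3* went from 14.1 ± 0.82 to 1.93 ± 0.243 FPKM (log2 fold change -2.37), *Nr4a1* from 40.2 ± 0.529 to 10.7 ± 0.681 (-1.81), *Btg2* from 37.1 ± 2.0 to 13.2 ± 1.13 (-1.43) and *Egr1* from 33.1 ± 1.0 to 12.7 ± 0.648 (-1.31), and all 4 passed (limma adjusted p of at most 2.4e-05). The summed level of the list was 1230–1248 FPKM in the CTRL libraries and 721–730 in the cKO libraries. *Klf6*, *Klf4* and *Klf10* are themselves known as early response genes, and the part of this list in their change was not tested. Of 9 tested heat shock genes, 4 fell and 2 rose, while 20.6% of all genes tested fell and 19.9% rose. On the log2 scale, *Hspa1b* was at -2.40, *Hspa1a* at -1.11, *Dnajb1* at -0.42 and *Hspe1* at 0.30.

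Of 7 glucocorticoid responsive genes, all tested, 2 rose and 2 fell, with a median log2 fold change of -0.14. Of all genes tested, 19.9% rose and 20.6% fell. *Tsc22d3*, which encodes the glucocorticoid-induced protein GILZ, rose by 0.64 and *Per1*, a clock gene with glucocorticoid response elements, by 0.53, whereas *Dusp1*, also counted among the immediate early genes, had a log2 fold change of -0.93 and *Nr3c1*, the receptor itself, of -0.21 (limma adjusted p of at most 0.0154 for all 4).

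Cofactors and ubiquitin ligases of KLF proteins were also examined. Of 10 cofactor genes, 3 rose, 1 fell and 6 did not pass, while 19.9% of all genes tested rose and 20.6% fell. *Sin3b* at 0.28, *Hdac1* at 0.23 and *Hdac3* at 0.18 on the log2 scale were higher, and *Sin3a* at -0.15 was lower (limma adjusted p of at most 0.0199). Of 7 ubiquitin ligase genes that are known to act on KLF proteins, 1 fell, beside 20.6% of all genes tested, and 6 did not pass. The 1 that fell was *Wwp2*, with a log2 fold change of -0.22 (limma adjusted p = 0.0072).

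Of 15 genes described as targets of single KLFs, 12 were tested, 8 fell and 1 rose, with a median log2 fold change of -0.24. Of all genes tested, 20.6% fell and 19.9% rose. Beside *Ccl5*, the largest changes were in *Thbd*, the anticoagulant receptor thrombomodulin and a target of *Klf2* and *Klf4*, from 3.29 ± 0.132 to 1.34 ± 0.278 FPKM (log2 fold change -0.88), in *Smad7*, an inhibitor of TGF-beta signaling, from 5.05 ± 0.214 to 2.86 ± 0.188 (-0.65), and in *Cdkn1a*, the cell cycle inhibitor p21 and a target of *Klf4* and *Klf6*, from 13.1 ± 1.33 to 8.64 ± 0.69 (-0.55). These 3 passed (limma adjusted p of at most 0.0026). The targets were taken from other cell types, and binding of the factors was not measured here.

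**Figure D5:**
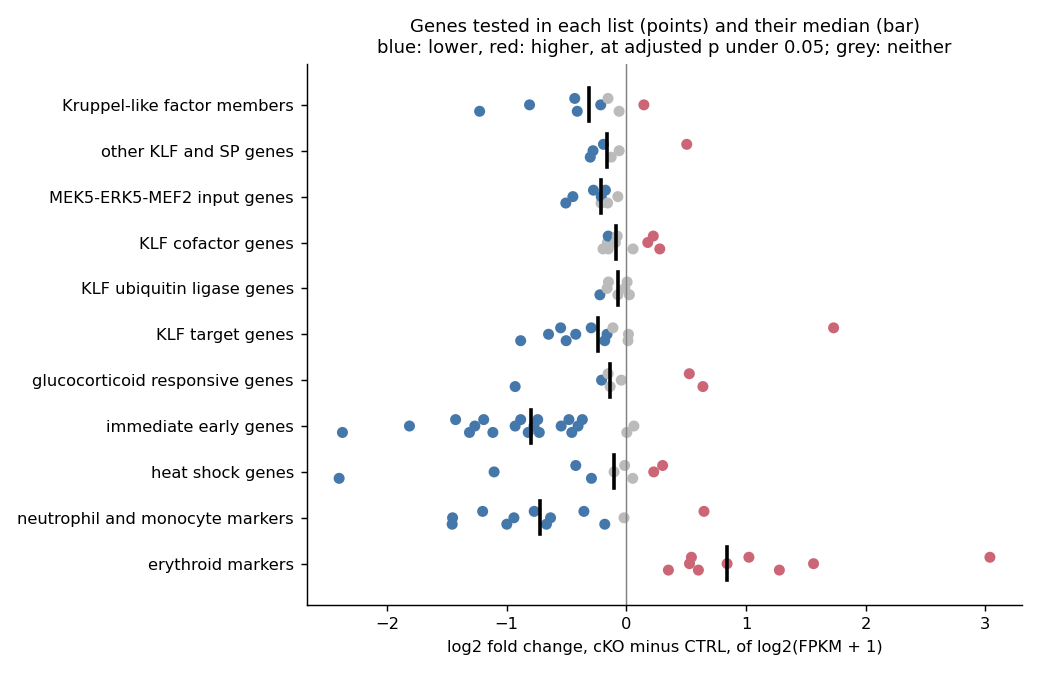
Log2 fold change of log2(FPKM + 1), cKO minus CTRL (horizontal axis), of each tested gene in 11 lists (rows), with the median of the list as a black bar. Blue points fell and red points rose at an adjusted p under 0.05, and grey points did not pass. The median of the members is -0.31, that of the immediate early genes -0.80 and that of the erythroid markers 0.84.

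The genes whose log2(FPKM + 1) followed *Klf6* most closely over the 6 libraries, among the 7168 that averaged at least 5 FPKM, were *Pdia6*, *Rgs2* and *Ly86*, with a Pearson r of 0.9995, 0.9992 and 0.9992, and 231 genes had an r over 0.99. For *Klf13*, the member with the next largest change at that level, they were *Isoc2b* (0.998), *Selenos* (0.994) and *Micu2* (0.992), and 9 genes had an r over 0.99. The 6 points come from 2 groups that differ in both genes, so these values describe the difference between groups as much as the order within them.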

How the data were processed

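RNA of sorted LSK cells was sequenced from 3 CTRL and 3 cKO samples with a kit that does not mark strand. The authors deposited FPKM per gene. The submitters' processing notes name HISAT2 2.0.5 and mm10, and the counting program and annotation are not given in the sources used here. Each FPKM was a whole number of reads after rescaling by gene length and library (100% of values, tolerance 0.01), so the depth is known. Groups follow the sample titles. The members and all lists were chosen with earlier results of these data known.

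The 11552 genes that averaged at least 1 FPKM over all libraries were fitted with limma 3.58.1 in R 4.3.3 on log2(FPKM + 1) with a trended prior (two-sided), with Benjamini-Hochberg adjustment over all of them. The script was tested on simulated data. Named genes were all members, *Myh9*, every tested gene among the other KLF and SP genes, at most 4 genes per other list with the largest change among those that passed, and the 3 genes nearest to each of 2 members. *Ly6a*, *Cd34*, *Hdac7*, *Mapk7*, *Mef2a*, *Mef2c*, the untested T and NK cell markers and the genes that overlap members were named outside this rule. Alternatives changed the pseudocount, filter, scaling, variance model, replicate block, libraries and GC or length trends, or used voom on the recovered reads. CTRL and cKO libraries with the same number did not deviate together (r of -0.0262 to -0.00459). These values cannot tell whether libraries with the same number were littermates or were sorted together. In the other marker lists, 3 of 9 tested LSK markers rose and 1 fell, and 3 of 6 B and plasma cell markers rose and 2 fell. Of the T and NK cell markers, 1 of 2 tested rose and 1 fell, while 1 of 1 stroma marker fell. Of all genes tested, 19.9% rose and 20.6% fell. The other T and NK cell markers were below the minimum of the test. Of these, *Cd3d* went from a mean of 0.141 to 1.45 FPKM, *Cd3e* from 0 to 0.234, *Cd3g* from 0.0495 to 0.654 and *Cd4* from 0.311 to 0.826. *Klrb1c* went from 0.354 to 1.01, *Ncr1* from 0.458 to 0.830 and *Gzma* from 0.425 to 1.56, while *Cd8a* and *Cd8b1* had at most 2 reads in a library.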

Additional observations from a re-analysis of the deposited data

How the results depend on the processing

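The count of members that fell was 5 in every alternative with the members tested at the same threshold, with 1 exception. It was 3 where the minimum mean was 5 FPKM, since *Klf2*, *Klf3*, *Klf4* and *Klf9* were then not tested. By a change over 2-fold on the log2(FPKM + 1) scale with an unadjusted p under 0.05, the count was 1. That scale shrinks the change of low genes: *Klf4* was at -0.81 on it and at -1.22 with a pseudocount of 0.1. By this 2-fold rule 0 members were higher, and 81 genes in all were lower and 165 higher, against 2378 and 2295. Leaving out 1 library in turn gave 5 members that fell each time and 0 to 1 that rose: *Klf16* had a log2 fold change of 0.12 without CTRL replicate 1 and of 0.13 without cKO replicate 3, and did not pass in either. The median log2 fold change of the members lay between -0.37 and -0.27, except for -0.19 with no filter, where *Klf7* and *Klf12* are counted too. With a replicate block, 5 members fell, 1 rose and their median was -0.31, while 2044 genes were lower and 2063 higher. Libraries with the same number did not deviate together, which cannot show whether they were handled as pairs. Uncalled values that turned in sign were *Klf2*, which ranged from -0.30 to 0.031 as 1 library was left out (0.031 without cKO replicate 2), and *Klf3*, at 0.042 with the trend with gene length removed and 0.060 with GC content removed too. Without a pseudocount, the log2 ratio of means was -1.37 for *Klf6* and -1.29 for *Klf4*. The trends with GC content and gene length, once removed, left 1788 genes lower and 2622 higher, 59.5% of those called against 49.1%. *Klf7* and *Klf12* were not tested under the alternatives that keep the minimum, and depth limits *Klf12*, with 1 to 11 reads in a library.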
